A study of Mus musculus with 2 samples.

Results

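Small leucine-rich proteoglycans are secreted core proteins, built around leucine-rich repeats, that sit on the surface of collagen fibrils. The genes described here are Bgn, Dcn, Lum, Fmod, Prelp, Ogn, Aspn, Omd and Podn, 9 of the 19465 genes measured, listed by symbol with earlier results of these data known. They were measured with Visium CytAssist, in which gene-specific probes are captured on spots over a formalin-fixed, paraffin-embedded heart section and counted as UMIs (unique molecules). A spot covers a small region that can hold several cells. The control was 1 α-MHC-MerCreMer+/− mouse, and the TOP2B transgenic was 1 α-MHC-MerCreMer+/− hTOP2B LSL/− mouse. Both carried a tamoxifen-activated Cre driven in cardiomyocytes by the α-MHC promoter, and both received 80 mg/kg of tamoxifen intraperitoneally, once. In the methods such mice were 6 weeks old when injected, and controls were littermates of that age. In the transgenic, Cre removes a loxP-flanked STOP cassette at Rosa26, after which a CAG promoter drives the human TOP2B cDNA in cardiomyocytes. The time of harvest of these sections was not given in the sources used here.

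The control section gave 1256 spots and 14376300 UMIs, and the transgenic section 924 spots and 12953389 UMIs, with medians of 11335.5 and 14531 UMIs per spot. The 725 barcodes that the sections share are positions of the array design. With 1 section per genotype there was no replicate and no test. The intervals below are exact 95% intervals that cover counting error only, and animal, section plane, batch and genotype cannot be told apart. Mouse Top2b was at 106 and 102 CPM (UMIs per 1000000 UMIs of the section) in the control and transgenic, and the human transgene was not analysed here. The 9 cardiomyocyte genes checked (of 10 listed) made up 8.20% of control and 4.38% of transgenic UMIs. Erythroid genes were at 2146 and 20420 CPM, and 8 control and 54 transgenic spots drew at least 10% of their UMIs from them. These blood-rich spots were left out of the spatial values where stated, along with 4 control and 2 transgenic spots that had no neighbor.

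Small leucine-rich proteoglycans regulate how collagen fibrils assemble and how thick they grow. In the heart they are made mainly by fibroblasts and vascular wall cells, and several of them also bind transforming growth factor β. Biglycan (Bgn) and decorin (Dcn) carry chondroitin or dermatan sulfate chains, while fibromodulin (Fmod), lumican (Lum) and osteomodulin (Omd) can carry keratan sulfate.

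The promoters of Bgn, Fmod and Prelp, which were the members furthest above the control, and of Ogn, which stood closest to it, are shown so that their bases can be set beside the values that follow. Each line gives the 250 bases before the RefSeq start on the gene's own strand (GRCm38.p6), with matches to the motifs searched in capitals. The windows are chrX:73483351-73483600 for Bgn, chr1:134037004-134037253 for Fmod, chr1:133921402-133921651 on the minus strand for Prelp and chr13:49607765-49608014 for Ogn.
Bgn: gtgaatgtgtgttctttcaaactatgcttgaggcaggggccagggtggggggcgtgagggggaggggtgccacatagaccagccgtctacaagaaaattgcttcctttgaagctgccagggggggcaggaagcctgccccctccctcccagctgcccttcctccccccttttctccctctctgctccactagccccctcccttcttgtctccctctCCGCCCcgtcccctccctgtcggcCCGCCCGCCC
Fmod: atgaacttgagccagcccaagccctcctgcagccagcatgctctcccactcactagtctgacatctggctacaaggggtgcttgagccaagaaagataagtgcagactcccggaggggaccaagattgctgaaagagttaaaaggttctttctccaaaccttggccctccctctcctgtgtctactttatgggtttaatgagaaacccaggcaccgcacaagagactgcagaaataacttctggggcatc
Prelp: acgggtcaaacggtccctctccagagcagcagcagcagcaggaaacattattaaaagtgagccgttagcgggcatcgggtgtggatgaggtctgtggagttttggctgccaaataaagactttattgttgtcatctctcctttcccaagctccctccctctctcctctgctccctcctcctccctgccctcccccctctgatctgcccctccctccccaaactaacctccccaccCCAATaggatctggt
Ogn: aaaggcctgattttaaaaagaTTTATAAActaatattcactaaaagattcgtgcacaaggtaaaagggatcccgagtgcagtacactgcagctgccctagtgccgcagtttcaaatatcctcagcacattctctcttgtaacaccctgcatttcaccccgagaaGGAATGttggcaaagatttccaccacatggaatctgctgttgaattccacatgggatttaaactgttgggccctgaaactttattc

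Promoter windows were at hand for 7 of the 9 members. Both strands were searched for a TATA box (TATAAA, in 12.4% of 32851 mouse promoters), a GC box (GGGCGG, 32.7%), a CCAAT box (CCAAT, 33.8%), an AP-1 site (TGANTCA, 6.75%), a Smad site (CAGACA, 17.1%) and a TEAD site (GGAATG, 12.6%). Bgn held 3 GC boxes on the opposite strand and 64.4% G and C. Prelp held 1 CCAAT box, 15 bases before the start. Ogn held 2 overlapping TATA box matches, more than 200 bases upstream, and 1 TEAD site, with 42.0% G and C. Fmod held none of the 6 motifs. None of the 4 windows held the AP-1 or the Smad letters, so the 3 members furthest above the control shared no motif of this search.

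All 9 members had a higher CPM in the transgenic than in the control section, against 63.2% of the 15236 genes with at least 20 UMIs, a minimum that all 9 passed. Of them, 7 were at least 2-fold higher, where 13.7% of all genes tested were. None was 2-fold lower, against 5.61% of all genes. The median log2 ratio of the 9 was 1.64, and that of all genes tested was 0.20, so changes are best read relative to this 0.20. Summed over the members, the control had 857 CPM and the transgenic 2844 CPM, which gave a log2 ratio of 1.73 (95% interval 1.70 to 1.76). As a measure of spread inside a section, each was divided into 4 quadrants at its center. In 6 members every transgenic quadrant lay above every control quadrant, against 30.3% of all genes, and the reverse held for none, against 13.1%. More cells of a type and more RNA per cell cannot be told apart in these counts.

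**Figure D1:**
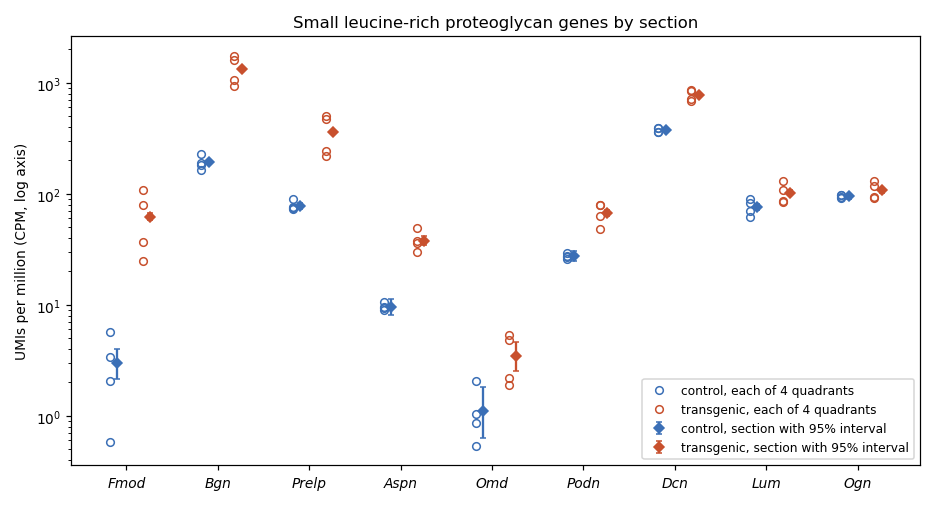
CPM of each member in the control (blue) and transgenic (red) section on a log axis, with diamonds for whole sections (95% counting intervals) and open circles for the 4 quadrants. The quadrants of Fmod, Bgn, Prelp, Aspn, Podn and Dcn do not overlap between sections, and those of Omd, Lum and Ogn do.

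Biglycan, which binds collagen and can act as a danger signal through toll-like receptors once released, had 2759 UMIs or 192 CPM in the control and 17248 UMIs or 1332 CPM in the transgenic section. Its quadrants ranged from 164 to 230 CPM and from 945 to 1755 CPM, far apart. The ratio was 6.94-fold (95% interval 6.66 to 7.23), and 98.57% of the genes tested had a lower one. Bgn is X-linked, and the sex of the mice could not be read from these counts, since the Y-linked genes Ddx3y, Uty, Kdm5d and Eif2s3y were listed with 0 UMIs in both sections and whether the probes cover them is unknown.

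Decorin, its closest relative, limits the lateral growth of fibrils and binds transforming growth factor β. It had 5378 UMIs or 374 CPM in the control and 10019 UMIs or 773 CPM in the transgenic section. Its quadrants were at 357 to 392 CPM and 692 to 861 CPM and did not overlap. The ratio of 2.07 (95% interval 2.00 to 2.14) was at the edge of the 2-fold rule, and on the log2 scale it was 0.89 with TMM factors in place of totals. Biglycan made up 33.9% of their joint UMIs in the control (95% interval 32.9 to 34.9) and 63.3% in the transgenic section (62.7 to 63.8). This share depends on the probes of both genes, so only its difference between sections is of use.

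Asporin (Aspn), which resembles decorin but carries a run of aspartates in place of a chain, had 138 UMIs or 9.60 CPM in the control and 492 UMIs or 38.0 CPM in the transgenic section. Quadrants ran from 8.93 to 10.5 CPM and from 30.1 to 49.6 CPM, with no overlap. The ratio was 3.96-fold (95% interval 3.27 to 4.81).

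Fibromodulin, which binds collagen and takes part in its cross-linking, had the largest ratio of the 9. It was almost silent in the control, with 43 UMIs or 2.99 CPM, and reached 808 UMIs or 62.4 CPM in the transgenic section. Control quadrants were at 0.58 to 5.66 CPM and transgenic quadrants at 24.8 to 108 CPM, so the lowest of the latter was well above the highest of the former. The ratio was 20.9-fold (95% interval 15.3 to 29.0), and 99.67% of the genes tested had a lower one. On the log2 scale it was 4.38, and 3.58 when only spots rich in cardiomyocyte genes were kept. Rich here meant at or above the section's own median share of these genes. The sections were not matched by this cut, as these genes made up 8.20% of control and 4.38% of transgenic UMIs. A UMI of Fmod was present in 3.26% of control spots (95% interval 2.35 to 4.40) and 41.2% of transgenic spots (38.0 to 44.5). At an equal depth of 8134 UMIs per spot, over 1116 control and 846 transgenic spots, the shares were 1.88% and 31.6%. No cell type that should lack Fmod is separable in spots, so a background share could not be given.

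Prelp, a basic family member that links collagen to basement membranes through heparan sulfate, had 1124 UMIs or 78.2 CPM in the control and 4630 UMIs or 357 CPM in the transgenic section. Quadrants ran from 72.9 to 89.0 CPM and from 219 to 506 CPM. The ratio was 4.57-fold (95% interval 4.28 to 4.88), which is 2.19 on the log2 scale, and 1.41 when only spots rich in cardiomyocyte genes were kept. Osteomodulin was near the limit of detection, with 16 and 45 UMIs. Its ratio of 3.12 had a wide interval (1.73 to 5.92), and its quadrants, 0.54 to 2.07 CPM and 1.91 to 5.31 CPM, overlapped.

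Lumican and osteoglycin (Ogn) stood apart from the others. Lumican, a fibril spacing regulator, had 1102 UMIs or 76.7 CPM in the control and 1332 UMIs or 103 CPM in the transgenic section, with overlapping quadrants at 61.3 to 89.1 CPM and 84.3 to 130 CPM. Its log2 ratio was 0.42 (95% interval 0.31 to 0.54). Osteoglycin had 1369 UMIs or 95.2 CPM and 1401 UMIs or 108 CPM, with quadrants at 91.9 to 97.8 CPM and 91.5 to 130 CPM. Its log2 ratio of 0.18 (0.08 to 0.29) was no higher than the median of all genes, and it was -0.20 when only spots rich in cardiomyocyte genes were kept. Of all UMIs of the 9 members, Ogn held 11.1% in the control and 3.80% in the transgenic section, and Lum 8.94% and 3.62%.

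Podocan (Podn), a member of a more distant class that is known in smooth muscle, had 395 UMIs or 27.5 CPM in the control and 867 UMIs or 66.9 CPM in the transgenic section. Quadrants at 25.9 to 29.1 CPM and 48.6 to 79.2 CPM did not overlap, and the ratio was 2.44-fold (95% interval 2.16 to 2.75).

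**Figure D2:**
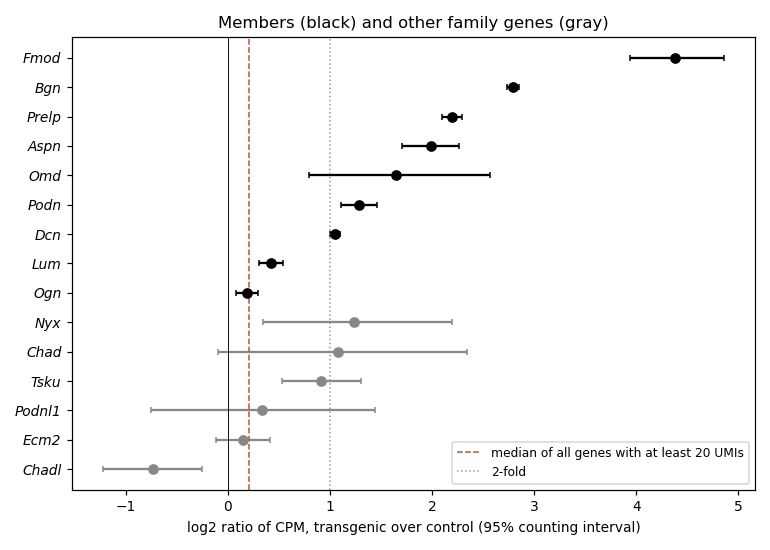
Log2 ratio of CPM, transgenic over control, for the 9 members (black) and the 6 other family genes with at least 20 UMIs (gray), with 95% counting intervals. Fmod at 4.38 and Bgn at 2.79 lie furthest right, while Ogn at 0.18 lies on the median of all genes (dashed line).

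The other genes of the family were few and low. Of 9, 6 passed the minimum of 20 UMIs, and their median log2 ratio was 0.62. Nyx (16 and 34 UMIs) had the highest ratio on the log2 scale at 1.24, followed by Chad at 1.08 (10 and 19 UMIs), Tsku at 0.91, Podnl1 at 0.33 and Ecm2 at 0.15, and Chadl was lowest at -0.73. Kera, Epyc and Optc did not reach the minimum. Several family genes lie side by side in the mouse genome. The adjacent Prelp and Fmod on chromosome 1 stood at log2 ratios of 2.19 and 4.38, and the adjacent Dcn and Lum on chromosome 10 at 1.05 and 0.42. On chromosome 13, the adjacent Aspn and Omd stood at 1.98 and 1.64, and the genes on either side of this pair, Ecm2 and Ogn, at 0.15 and 0.18.

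In space, the control was a round ring of tissue around a cavity with members scattered over it. The transgenic section was an oval ring around a wide, partly blood-filled cavity, and Bgn, Dcn, Prelp and Fmod were dense on its side with the higher array columns. Neighboring spots were compared with Moran's I, deposited for each gene, where 0 means no spatial order and 1 a complete one. It was 0.09 in the control and 0.63 in the transgenic section for Bgn, 0.10 and 0.52 for Dcn, 0.01 and 0.56 for Prelp, and 0.04 and 0.42 for Fmod. It was 0.04 and 0.15 for Lum, -0.00 and 0.19 for Ogn, and at most 0.09 in either section for Aspn, Omd and Podn.

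Moran's I depends on the number of UMIs per spot, and over 6790 genes with at least 200 UMIs in each section 92.5% had a higher value in the transgenic. The members were therefore thinned to equal UMIs per spot, without blood-rich and neighborless spots, and I was recomputed as a mean of 20 draws. It was then 0.13 and 0.30 for Bgn, 0.14 and 0.33 for Dcn, 0.02 and 0.29 for Prelp, -0.02 and 0.14 for Ogn, and 0.05 and 0.10 for Lum. For these 5 the transgenic value was higher in every draw. The share of all genes that would be higher at matched depth was not computed. Among the 6790 genes, by deposited values, 98.5% (control) and 99.4% (transgenic) had a lower I than Bgn. For Dcn this was 98.9% and 98.4%, and for Lum 95.2% and 86.5%. For Prelp it was 60.3% and 98.7%, and for Ogn 21.5% and 89.4%. Relative to other genes, Bgn and Dcn thus hardly moved, Lum fell, and Prelp and Ogn rose. For Fmod, Aspn, Omd and Podn matching left 0.32 UMIs per spot or fewer (0.035 for Fmod), too few to compare the order of the sections.

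**Figure D3:**
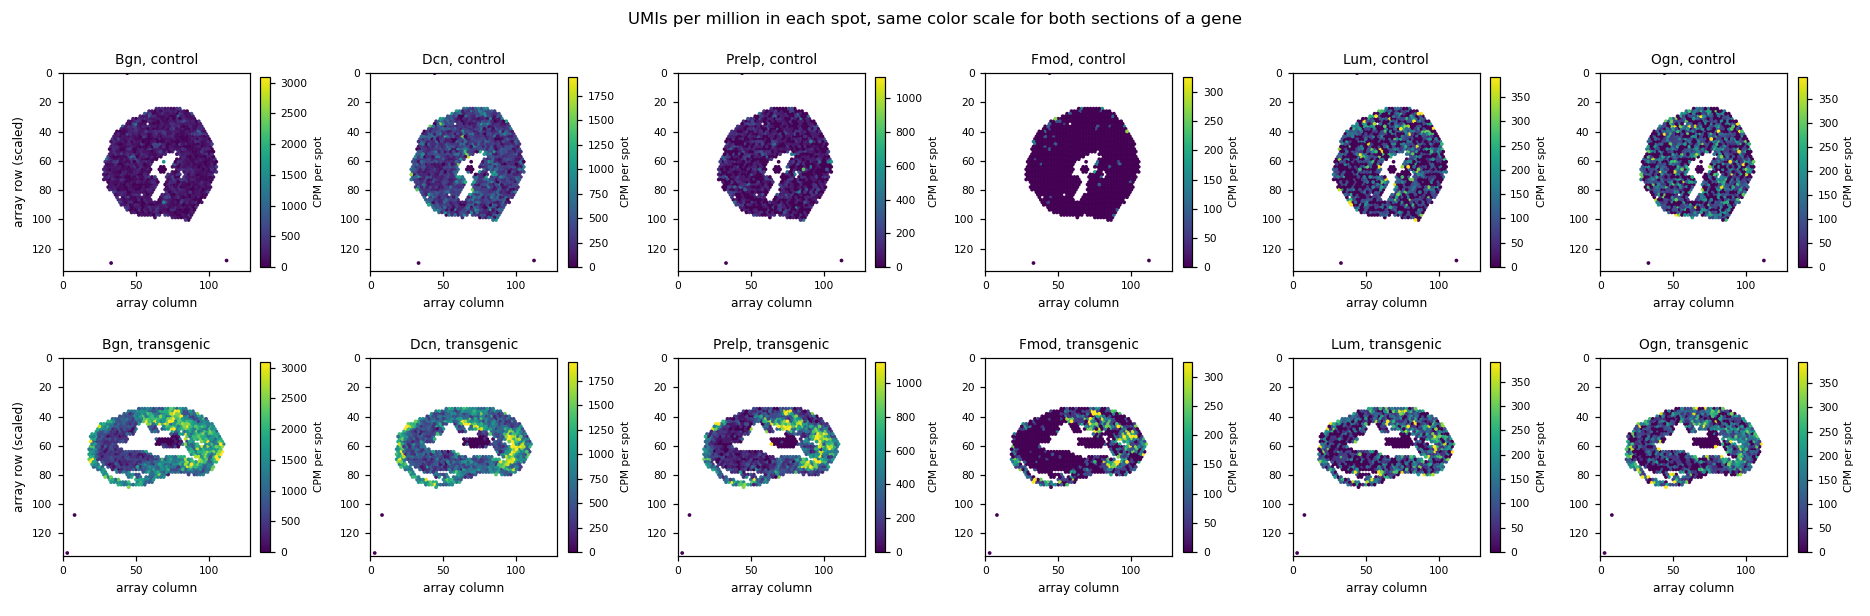
CPM in each spot of the control (top) and transgenic (bottom) section by array column and row, for 6 members, with 1 color scale per gene capped at its 99th percentile. Bgn, Dcn, Prelp and Fmod are brightest at high array columns of the transgenic section, and Lum and Ogn, with about 1 UMI in a median spot, look grainy but are also higher in the last band (127 and 140 CPM) than in the first (80.6 and 97.0 CPM).

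To put values on the map, spots of each section were cut into 4 bands of array columns, without blood-rich and neighborless spots. This axis was chosen after the maps were seen, so the bands only describe. From low to high columns of the transgenic section, Bgn was at 955, 1006, 1652 and 1734 CPM, against 160 to 214 CPM over the control bands. Prelp was at 239, 221, 418 and 564 CPM, against 67.5 to 83.7 CPM. Fmod was at 30.8, 32.7, 79.3 and 108 CPM, against 1.20 to 4.93 CPM. The last transgenic band stood 3.52-fold above the first for Fmod (95% interval 2.80 to 4.45), 2.36-fold for Prelp (2.17 to 2.58), 1.82-fold for Bgn (1.74 to 1.90), 1.70-fold for Podn (1.39 to 2.08), 1.58-fold for Lum (1.34 to 1.85), 1.44-fold for Ogn (1.24 to 1.67) and 1.35-fold for Dcn (1.28 to 1.43). For Omd it was 1.08-fold with a wide interval (0.42 to 2.74). Ogn was at 97.0, 85.2, 118 and 140 CPM, against 91.5 to 100 CPM over the control bands. Its first band lay within that range, the next below it and the later ones above it. Aspn did not share this gradient over columns, at 37.9, 40.6, 44.9 and 29.2 CPM, with a ratio of 0.77 between last and first band (0.58 to 1.02). Along array rows, Aspn went from 52.5 CPM in the first transgenic band to 32.9 CPM in the last (0.63-fold, 0.49 to 0.80). Fmod (0.79-fold), Bgn (0.80-fold) and Podn (0.81-fold) were also lower in the last band of rows. For Dcn, Prelp, Lum, Ogn and Omd the interval of this ratio held 1 in the transgenic section. A decline along rows was also present in the control, at 0.81-fold for Bgn (0.73 to 0.90) and 0.74-fold for Lum (0.62 to 0.88). For Fmod it was 0.18-fold there (0.04 to 0.52), on few UMIs. For the other members the control interval held 1.

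Other genes also moved along the array columns. The cardiomyocyte genes were at 49764 CPM in the first transgenic band and 38615 CPM in the last, and the 11 collagen genes that the members bind at 4521 and 7368 CPM. Genes of activated fibroblasts went from 1292 to 2363 CPM (1.83-fold), those of resting fibroblasts from 4670 to 7494 CPM (1.60-fold), smooth muscle genes from 672 to 965 CPM (1.44-fold) and atrial genes from 55.7 to 106 CPM (1.90-fold). Gpx3 alone, 1 of the 12 resting fibroblast genes, went from 3102 to 5728 CPM (1.85-fold), so that sum mostly follows this gene. Macrophage genes were at 468 and 557 CPM and endothelial genes at 1878 and 1707 CPM. Erythroid genes, after the blood-rich spots were left out, were at 6548, 9283, 10277 and 6761 CPM. The part of these genes in the members' gradient was not tested. Even the lowest transgenic band was above the highest control band, 6.24-fold for Fmod, 4.46-fold for Bgn and 2.64-fold for Prelp, but for Lum and Ogn it was below (0.89 and 0.85).

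**Figure D4:**
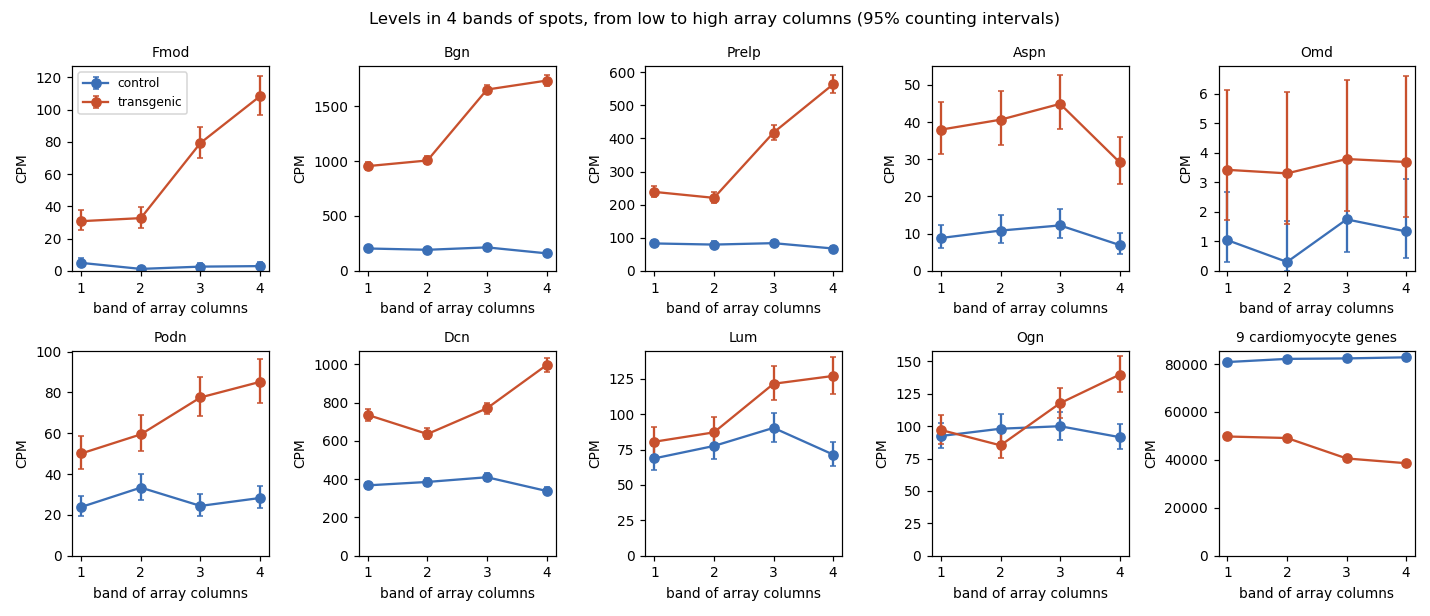
CPM of each member and of 9 cardiomyocyte genes in 4 bands of spots from low to high array columns, in the control (blue) and transgenic (red) section, with 95% counting intervals. The red lines of Fmod, Bgn and Prelp climb to 108, 1734 and 564 CPM in the last band while the cardiomyocyte genes go down to 38615 CPM.

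The boundary of the tissue carried a second pattern. Edge spots lacked at least 1 of their 6 array neighbors over tissue. They faced the outside (139 control and 133 transgenic spots) or a gap within the tissue, here called a cavity (91 and 178). The part of this mix in the edge ratios was not tested. Blood-rich spots were kept in these values. Of them, 7 of 8 in the control and 31 of 54 in the transgenic section were edge spots. Dcn was at 393 CPM in the blood-rich spots of the transgenic section and 782 CPM in the others. With erythroid UMIs left out of the total of the blood-rich spots, Dcn was at 857 CPM there. The 782 CPM of the other spots keeps erythroid UMIs in its total. Whether Dcn was lower in blood-rich spots thus depends on the total used. The part of these spots in the edge ratios, and in their difference between sections, was not tested. In the control, Dcn declined from 499 CPM in edge spots through 410, 361 and 355 to 322 CPM at 4 or more spots from the edge. In the transgenic section it declined likewise, from 860 through 804, 764 and 627 to 546 CPM. The last class held 421 control and 29 transgenic spots. It reached 8 spots from the edge in the control but only 4 in the transgenic section. For Dcn, edge over interior was 1.41-fold in the control (95% interval on the log2 scale 0.40 to 0.59) and 1.16-fold in the transgenic section (0.16 to 0.28). For Podn it was 1.53-fold in the control (log2 interval 0.24 to 0.98) and 1.29-fold in the transgenic section (0.16 to 0.58). In the control, Podn had a log2 ratio of 0.89 at cavities (0.37 to 1.37) and 0.39 at the outer boundary (-0.12 to 0.87). In the transgenic section edge over interior was highest for Ogn at 1.33-fold (0.25 to 0.58), and 1.27-fold for Lum (0.17 to 0.51). Their control values were 1.11-fold (-0.08 to 0.36) and 1.17-fold (-0.02 to 0.46). In the transgenic section Lum had a log2 ratio of 0.52 at the outer boundary (0.31 to 0.74) and 0.17 at cavities (-0.05 to 0.38). For Dcn the interval was above 0 at both boundaries of both sections. Over all edge spots Bgn was at 1.14-fold in the control (0.03 to 0.33) and 1.10-fold in the transgenic section (0.09 to 0.19). For Prelp and Omd the interval held 0 in both sections. The few control UMIs of Fmod were also denser at the edge, with a ratio of 4.01 (log2 interval 1.03 to 2.94). The 230 edge spots held 17 of the 43, so most were in the interior. By boundary, the control log2 ratio of Fmod was 2.37 at the outer one (1.29 to 3.39) and 1.21 at cavities (-0.77 to 2.74). In the transgenic section Fmod was at 67.8 CPM in edge and 60.2 CPM in interior spots, a log2 ratio of 0.17 (-0.05 to 0.39). Aspn was lower at the edge of the transgenic section, at 31.6 CPM against 40.5 CPM inside, a log2 ratio of -0.36 (-0.67 to -0.05). In the control its log2 ratio was -0.53 (-1.44 to 0.27), on 14 edge UMIs. The 8 epicardial and mesothelial genes also summed to most in edge spots, 54.6 CPM (control) and 79.1 CPM (transgenic). From the edge to 4 or more spots inside, genes of resting fibroblasts were at 1838 and 1288 CPM in the control. In the transgenic section these genes were at 5713 CPM at the edge, then 5880, 6214, 5716 and 4877 CPM. There the edge was thus not the highest, and the last class held 29 spots. The transgenic sum leans on Gpx3, at 3102 of 4670 CPM in the first band of array columns. In the control Gpx3 was at 174 of 1330 CPM in that band. The 2 profiles are therefore not alike in content, and Gpx3 by distance from the edge was not computed. The bound collagens went from 1795 to 1142 CPM in the control and from 6826 to 3971 CPM in the transgenic section. Genes of activated fibroblasts ran the other way in the control, from 336 to 469 CPM. In the transgenic section these were at 1792 CPM at the edge, then 2092, 2326, 2001 and 1699 CPM. The part of these genes in the members' edge values was not tested.

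Members also went together from spot to spot in the transgenic section. Without blood-rich and neighborless spots, the 36 pairs had a median Pearson r of 0.03 over 1245 control spots and 0.17 over 868 transgenic spots, on log(1 + UMIs per 10000). Bgn and Prelp had the highest r at 0.60, then Fmod and Prelp at 0.58, Bgn and Fmod at 0.50, Dcn and Prelp at 0.50 and Bgn and Dcn at 0.47. With all 923 transgenic spots that had UMIs, Bgn and Prelp were at 0.62. Aspn stayed between -0.05 and 0.06 with every other member. Spots of 1 section share library, depth and a common total, and low counts hold r down, so these values only describe.

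**Figure D5:**
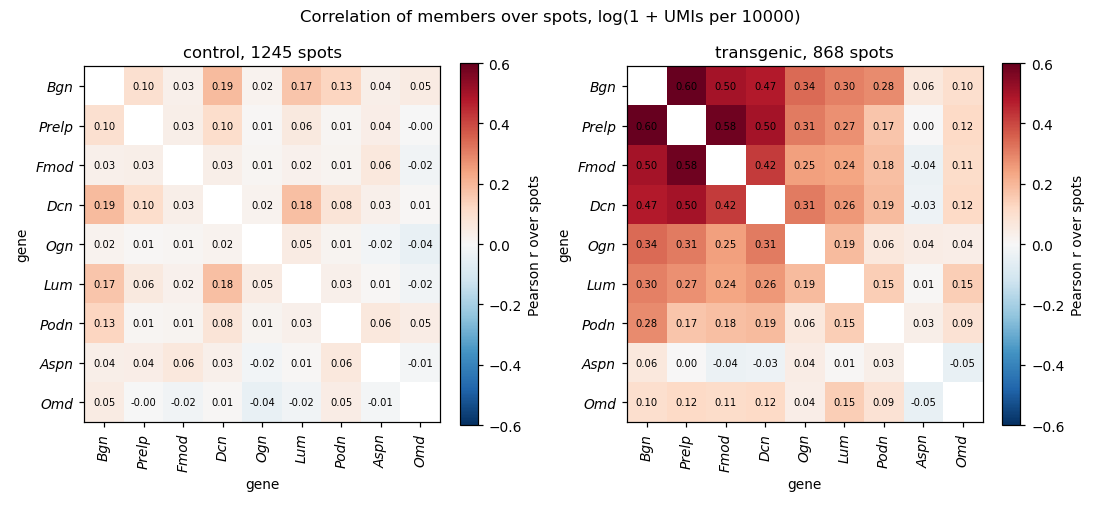
Pearson r over spots between each pair of members, on log(1 + UMIs per 10000), in the control (left) and transgenic (right) section without blood-rich and neighborless spots. Bgn, Prelp, Fmod and Dcn form a block of 0.42 to 0.60 on the right, and no control pair is above 0.19.

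The genes most like each member were sought among 7221 control and 7590 transgenic genes with at least 200 UMIs, over all spots. In the transgenic section the median r over these genes was 0.10 for Bgn and 0.12 for Dcn. Blood-rich and neighborless spots were kept here, and the search was not repeated without them. Leaving them out took r with the summed bound collagens from 0.63 to 0.46 for Dcn and from 0.61 to 0.57 for Prelp. For Bgn it stayed at 0.82, and for Fmod it went from 0.46 to 0.50. In the transgenic section Bgn went with Igfbp7 (0.83), Mgp (0.81) and Col1a2 (0.80), and Dcn with Igfbp7 (0.71), Mgp (0.65) and Sparc (0.63). Both Prelp and Fmod had Comp, the matrix protein thrombospondin-5, first (0.69 and 0.60), then Mgp (0.69 and 0.52), followed by Igfbp7 for Prelp (0.67) and Ccn5 for Fmod (0.51). Lum went with Igfbp7 (0.40), Mgp (0.39) and Col1a2 (0.39), Ogn with Igfbp7 (0.41), Col1a2 (0.39) and Ccn5 (0.39), and Podn with Mgp (0.31), Igfbp7 (0.30) and the elastin gene Eln (0.29). Aspn had a different set, Postn (0.23), Uck2 (0.20) and Thbs4 (0.20). In the control Dcn went with Gsn (0.36), Col3a1 (0.30) and Mgp (0.29), Bgn with Mgp (0.28), Col3a1 (0.24) and Igfbp7 (0.24), and Lum with Gsn (0.26), Col3a1 (0.23) and Col1a1 (0.20). For the other members the highest value in the control was 0.17, of Fmod with Igfbp5. Against the summed cardiomyocyte genes, Bgn had an r of -0.75, Prelp -0.65, Fmod -0.57 and Dcn -0.53 over the 868 transgenic spots. Over all 923 transgenic spots with UMIs it was 0.24, 0.07, -0.09 and 0.35. These include the 54 blood-rich spots and a neighborless spot with 1 UMI. The relation thus depends on which spots are kept, and the exclusions were not separated.

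The collagens that small leucine-rich proteoglycans bind were higher as well. Of 11, 10 were at least 2-fold higher and none 2-fold lower, with a median log2 ratio of 2.01, from Col6a3 at 0.26 (46.2 and 55.1 CPM) to Col5a2 at 3.09 (46.1 and 391 CPM). Their sum went from 1328 to 6016 CPM. Beside the counts of this list and the lists below, 13.7% of all genes tested were at least 2-fold higher and 5.61% 2-fold lower. For each 100 collagen UMIs there were 64.6 member UMIs in the control and 47.3 in the transgenic section.

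Of 22 enzymes of the linker and of chondroitin and dermatan sulfate, 20 had at least 20 UMIs, and 7 of these were 2-fold higher and none 2-fold lower, with a median log2 ratio of 0.62. The highest was Chpf at 1.63 (35.9 and 111 CPM), which polymerizes chondroitin, and the lowest was the linker enzyme B3gat3 at -0.21 (64.0 and 55.3 CPM). Dse, the epimerase that turns chondroitin into dermatan sulfate, was at 1.60. Among the 9 enzymes of keratan sulfate none reached 2-fold in either direction, and the median was -0.05, with B3gnt7 highest at 0.74 (8 and 12 UMIs) and Chst4 lowest at -0.42 (37 and 25 UMIs). Tyrosine sulfation, which modifies fibromodulin and osteomodulin, was represented by Tpst1 at -0.19 and Tpst2 at 0.46. The difference between the lists was not tested.

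Among 15 proteases and helpers that process or cut these core proteins, 9 were at least 2-fold higher and 3 were 2-fold lower, with a median log2 ratio of 1.21. Mmp3 was highest at 2.36 (1.11 and 5.71 CPM) and Htra1, a serine protease, lowest at -1.88 (211 and 57.4 CPM). Bmp1, which trims the biglycan propeptide, stood at 1.02. Of 21 ligands and receptors, 13 were 2-fold higher and 1 was 2-fold lower, with a median of 1.20, Ccn2 highest at 4.37 and Tnf lowest at -1.10. Other proteoglycans had a median of 0.47, closer to the 0.20 of all genes, from Gpc1 at -1.16 to Col9a2 at 6.69. Of 27, 8 were 2-fold higher and 1 was 2-fold lower, against 13.7% and 5.61% of all genes.

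Markers of the cells that make these proteins moved unevenly. Of 12 genes of resting fibroblasts, 6 were 2-fold higher and 1 was 2-fold lower, with a median log2 ratio of 1.02, from Clec3b at -1.56 to Gpx3 at 4.49. The fibroblast receptor Pdgfra was at 17.2 and 38.5 CPM, and Dpt and Gsn barely differed, at 0.06 and 0.00. Of 12 genes of activated fibroblasts, 11 were 2-fold higher, with a median of 4.54, from Acta2 at 0.50 to Ltbp2 at 6.92. Endothelial and mural genes had medians of 0.05 and -0.12. Macrophage genes summed to 244 and 493 CPM and epicardial and mesothelial genes to 16.8 and 39.5 CPM. Valve, cartilage and tendon genes summed to 43.1 and 119 CPM, atrial genes to 32.0 and 69.3 CPM, skeletal muscle genes to 7.10 and 41.2 CPM, smooth muscle genes to 734 and 711 CPM, Schwann genes to 16.1 and 13.4 CPM and adipocyte genes to 3.41 and 2.62 CPM. The part of these markers in the members' values was not tested. Per 100 UMIs of the resting fibroblast genes, the 9 members had 59.6 UMIs in the control and 48.6 in the transgenic section, and per 100 UMIs of the activated fibroblast genes 214 and 140. Per 100 Pdgfra UMIs the members instead rose, from 4989 to 7383. The resting fibroblast sum leans on Gpx3, so its ratio does not speak for the other genes of that list. Over the bands of array columns, Gpx3 was at 174 to 205 CPM in the control and 3102 to 5728 CPM in the transgenic section. A ratio without Gpx3 was not computed. The activated fibroblast sum had a log2 ratio of 2.35, below the median of 4.54 of its genes, so its ratio does not speak for each of them either. Acta2, at 0.50, is also among the smooth muscle genes.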

How the data were processed

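Visium CytAssist counts of 2 FFPE heart sections of 5 μm, 1 per genotype, were used. Reads had been run through Space Ranger by the authors (2.0.0 per the file headers, builds GRCm39 and mm39 per the labels' processing notes). The deposited values are raw UMI counts per gene and spot under tissue, not normalized, and a Moran's I score per gene. UMIs were summed per section, since spots are not replicates, and expressed as CPM. Genes with at least 20 UMIs over both sections were compared by fold, with no p-value, and the methods' rank test, which treats spots as replicates, was left out. Intervals at 95% were exact Poisson, conditional binomial or Clopper-Pearson (scipy 1.17.1). The member list and gene lists, and the alternatives, were chosen with earlier results of these data known. Named genes were the members, other family genes, the highest and lowest gene of each list and the 3 nearest genes per member. Dse, Bmp1, Pdgfra, Dpt and Gsn were named for their role, after their values were seen. Alternatives were edgeR 4.0.16 TMM and DESeq2 1.42.0 size factors (R 4.3.3), totals that leave out the top 50 genes, the mean over spots, subsets of spots, 1 CPM added and no minimum. Scripts were tested on simulated data. Sequences and gene order came from RefSeq (GRCm38.p6), and gene coordinates of the files' own build were not used.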

Additional observations from a re-analysis of the deposited data

How the results depend on the processing

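The median log2 ratio of the 9 members was 1.64 and lay between 1.11 and 1.67 over 11 alternatives, lowest in the spots richest in cardiomyocyte genes. Under each of them 6 or 7 members were at least 2-fold higher, against 9.94% to 14.5% of all genes. Dropping the minimum of UMIs could not change the members' own ratios, only the genes beside them. Dcn was the member that dropped below 2-fold, at 0.89 with TMM and 0.90 with DESeq2 size factors, 0.96 without the 50 most abundant genes, 0.97 as a mean over spots and 0.77 in cardiomyocyte-rich spots. Those scalings move the median of all genes from 0.20 to 0.05 with both TMM and DESeq2. The direction of a single member changed once, for Ogn, at -0.20 in the spots richest in cardiomyocyte genes (628 control and 462 transgenic spots). These were the spots at or above their own section's median share of cardiomyocyte genes, so the sections were not matched. In the same spots Fmod was at 3.58 instead of 4.38 and Prelp at 1.41 instead of 2.19. The cause was not tested. Among these alternatives, those without blood-rich spots and without spots that have no neighbor were added after seeing the data. No paired analysis was possible because there was 1 section per genotype. Depth limits Omd and the control values of Fmod and Aspn, which rest on 16, 43 and 138 UMIs.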
